A study of Mus musculus with 8 samples.

Results

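IgG2c-switched germinal-centre B cells were the smallest of the IgG subclasses in these spleens: 73 of 40603 cells with a complete receptor carried the constant gene IGHG2C, and they fell into 61 of 17919 clones. A member was a cell barcode with exactly 1 heavy-chain contig and exactly 1 light-chain contig, a contig being an assembled receptor transcript, whose heavy chain was assigned to IGHG2C. The comparison classes, chosen in the same way, were 609 IGHG2B, 375 IGHG3, 1778 IGHG1 and 37489 IGHM cells.

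Receptors were sequenced from single germinal-centre B cells of mouse spleen, taken 10 days after immunization, in 4 WT libraries (genotype Dtx1+/+) and 4 DTX1_KO libraries (genotype Dtx1-/-, called KO here). Cells of both genotypes were enriched with beads that bind peanut agglutinin, a lectin that binds germinal-centre B cells, and were then sorted. Not given in the sources used here are the immunogen, the mouse strain, the sort gates, the number and age of the mice and the tissues in which Dtx1 is missing. Dtx1 encodes Deltex-1, a ubiquitin ligase that acts in the Notch pathway.

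Class switching replaces the constant region of an antibody by deleting the DNA between the rearranged variable region and a downstream constant gene, while the variable region, and with it the antigen specificity, is kept. IGHG2C encodes IgG2c, an IgG subclass of mice with the C57BL/6 type of heavy-chain locus. Interferon-gamma and the transcription factor T-bet favour the switch to it, interleukin-4 favours IgG1, and IgG2c engages activating Fc receptors strongly. In the germinal centre, activation-induced deaminase drives both switching and somatic mutation of the variable region.

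On the mouse build GRCm38.p6 (mm10) the RefSeq table places IGHG2C on chromosome 12 from 113287389 to 113288932. IGHG2B (113304314 to 113307933), IGHG1 (113326541 to 113330523), IGHG3 (113357442 to 113361232) and IGHM (113418826 to 113422730) follow at higher coordinates. The locus is read from high to low coordinates, so IGHG2C is the last of the IgG constant genes.

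Between 4582 and 5697 paired cells per library had a constant gene, and 754954 to 1155339 unique molecular identifiers (UMIs, each tagging a captured transcript) were counted per library. The libraries of a genotype shared clones: 2 libraries of the same genotype had 709 to 1019 receptors in common (median 828 over 12 pairs), against 9 to 16 (median 11 over 16 pairs) for libraries of different genotypes. Of the clones with 2 or more cells, 88.4% in WT and 87.7% in KO spanned at least 2 libraries. For this reason the 4 libraries of each genotype count here as portions of a common pool of cells, so that every SD and p below measures the spread between these portions, not between mice. The files hold receptor contigs only, so the loss of Dtx1 and the germinal-centre identity were not checked with transcripts. Of 39615 distinct cell barcodes, 978 occurred in more than 1 library, 2 IgG2c cells among them.

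IgG2c cells made up a smaller share of the KO pool than of the WT pool. The 4 WT libraries held 13, 18, 14 and 8 IgG2c cells, which was 0.270, 0.388, 0.303 and 0.175% of paired cells with a constant gene. The 4 KO libraries held 4, 3, 7 and 6, which was 0.0725, 0.0527, 0.125 and 0.119%. The lowest WT library was above the highest KO library, but the counts were so small that the exact 95% interval of the lowest WT library (0.0754 to 0.344%) overlapped that of the highest KO library (0.0504 to 0.258%). The means were 0.284% ± 0.088 (SD, n = 4) in WT and 0.0925% ± 0.036 (SD, n = 4) in KO. The difference, KO minus WT, was -0.191 percentage points (two-sided exact permutation test over the libraries, p = 0.0286, the smallest that the 70 assignments allow). Adjusted by Benjamini-Hochberg over the 7 comparisons between pools it was 0.0667, so it passed the threshold of 0.05 only unadjusted. Summed over libraries, 53 of 18656 WT cells (0.284%, exact 95% interval 0.213 to 0.371%) and 20 of 21827 KO cells (0.0916%, 0.0560 to 0.141%) were IgG2c. These intervals cover counting error only.

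**Figure D1:**
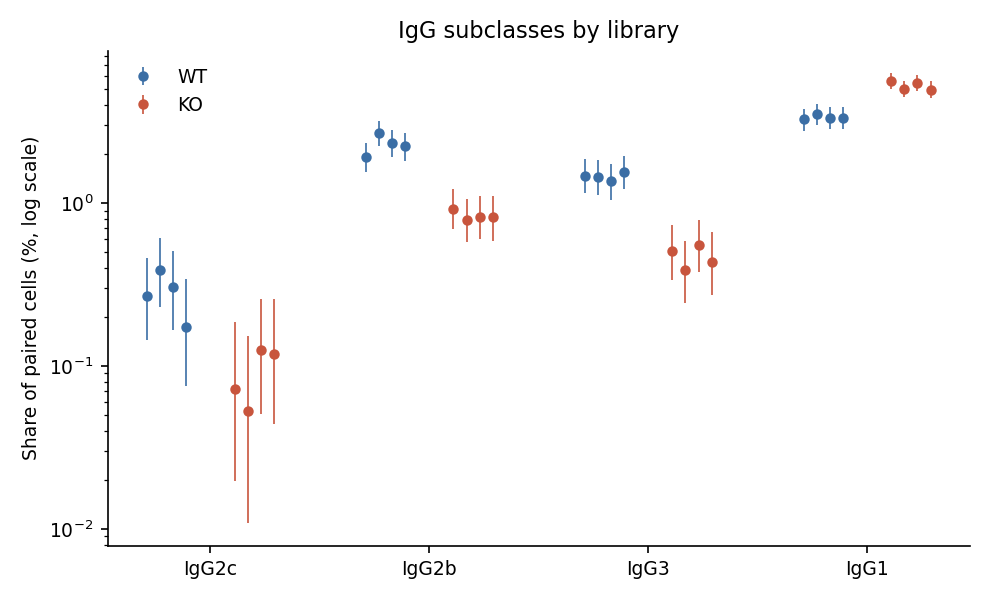
Share of paired cells with a constant gene (percent, log axis) that carried each IgG subclass. Each point is 1 library (4 WT in blue, 4 KO in red) with its exact 95% binomial interval; IgG2c shares lie between 0.175 and 0.388% in WT and between 0.0527 and 0.125% in KO, below every other subclass, and IgG1 is the subclass whose KO points lie above its WT points.

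The IgG2c share was 3.07 times as high in WT as in KO, beside 2.73 times for IgG2b and 3.09 times for IgG3. IgG1 went the other way: its share was 1.57 times as high in KO as in WT. Among cells of all 4 IgG subclasses (1378 in WT, 1457 in KO), 3.82% ± 1.03 were IgG2c in WT and 1.39% ± 0.53 in KO (SD, n = 4 each). This difference of -2.43 percentage points had an exact permutation p of 0.0286 (adjusted 0.0667).

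Setting IgG2c against each other subclass within a library tests whether the pool difference of IgG2c departs from theirs. Of IgG2c and IgG1 cells together, IgG2c cells were 7.72% ± 2.07 in WT and 1.72% ± 0.67 in KO (SD, n = 4 each). The WT libraries ranged from 4.97 to 9.94% and the KO libraries from 1.04 to 2.34%, without overlap (difference -6.00 percentage points, exact permutation p = 0.0286, adjusted 0.0667). Of IgG2c and IgG2b cells together, IgG2c cells were 10.95% ± 2.49 in WT and 9.87% ± 3.62 in KO, with ranges of 7.27 to 12.6% and 6.25 to 13.2% that overlapped (exact permutation p = 0.8286). Of IgG2c and IgG3 cells together they were 16.2% ± 4.69 in WT and 16.1% ± 4.603 in KO, with ranges of 10.1 to 21.2% and 12 to 21.4% (exact permutation p = 0.971). With 20 KO cells, differences of a few percentage points in these latter shares were not detectable. Each of the 3 differences that passed unadjusted had an exact permutation p of 0.0571 with any library left out, which is the smallest p that 7 libraries allow.

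IgG2c contigs were assembled from few molecules. The median number of heavy-chain UMIs was 10 in WT and 17.5 in KO IgG2c cells, beside 17 and 25 for IgG2b, 16 and 23 for IgG3, 14 and 18 for IgG1, and 24 and 42 for IgM. Of the 73 cells, 31 had fewer than 10 heavy-chain UMIs, 6 fewer than 5 and 2 only 1. With cells of at least 10 UMIs alone the difference in share was -0.101 percentage points, with the same p of 0.0286. The part that capture plays in the size of the class was not tested.

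Most members carried IGHV mutations, a sign of germinal-centre activity that does not by itself identify a cell as a germinal-centre cell. Mutation was counted over the IGHV segment from framework 1 to framework 3, against the most common sequence of that gene in these data, for 72 of the 73 cells. Of the WT IgG2c cells, 5 of 52 were unmutated (9.62%, exact 95% interval 3.20 to 21.0%), and of the KO IgG2c cells 3 of 20 (15.0%, 3.21 to 37.9%). Among IgM cells 70.0% in WT and 82.6% in KO were unmutated. No IgG2c cell used IGHV11-2, IGHV12-3 or IGHV7-1, which are typical of B-1 cells, an innate-like B-cell lineage. The use of these genes in the other classes was not compared, so no conclusion is drawn from their absence.

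IgG2c cells were more mutated than IgM cells of the same library, while a difference from the other IgG classes was not detectable with so few cells. The mean mutation level in the WT libraries was 2.08, 1.35, 1.38 and 1.40% of IGHV nucleotides, and in the KO libraries 1.14, 0.351, 0.652 and 1.52%. WT replicate 1 was the highest of all, and KO replicate 4 lay above 3 of the WT libraries, so the groups overlapped. The means were 1.55% ± 0.35 in WT and 0.916% ± 0.52 in KO (SD, n = 4 each, difference -0.635 percentage points, exact permutation p = 0.114, adjusted 0.2). With cells of at least 10 UMIs the difference was -0.244 (exact permutation p = 0.571). The range of single cells was 0 to 16 mutations in WT and 0 to 8 in KO, and 34.6% of WT and 15.0% of KO cells had at least 5.

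Within a library, IgG2c cells exceeded IgM cells in mean mutation in 8 of 8 libraries, by 0.964 ± 0.479 percentage points (SD, n = 8, exact sign-flip permutation p = 0.0078, the smallest possible, adjusted 0.0625 over the 8 class comparisons). The excess ranged from 0.171 in KO replicate 2 to 1.72 in WT replicate 1. Against IgG2b the mean difference was 0.164 ± 0.477 percentage points (higher in 6 of 8 libraries, exact sign-flip permutation p = 0.312). Against IgG1 it was 0.148 ± 0.417 (higher in 6 of 8, exact permutation p = 0.312), and against IgG3 0.00283 ± 0.486 (higher in 3 of 8, exact permutation p = 0.992). The differences from IgG2b and IgG1 shrank to 0.0615 and 0.0606 without WT replicate 1 and to 0.0892 and 0.0711 without KO replicate 4, and grew to 0.283 and 0.241 without KO replicate 2. With at least 10 UMIs they were 0.0532 and 0.0193.

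**Figure D2:**
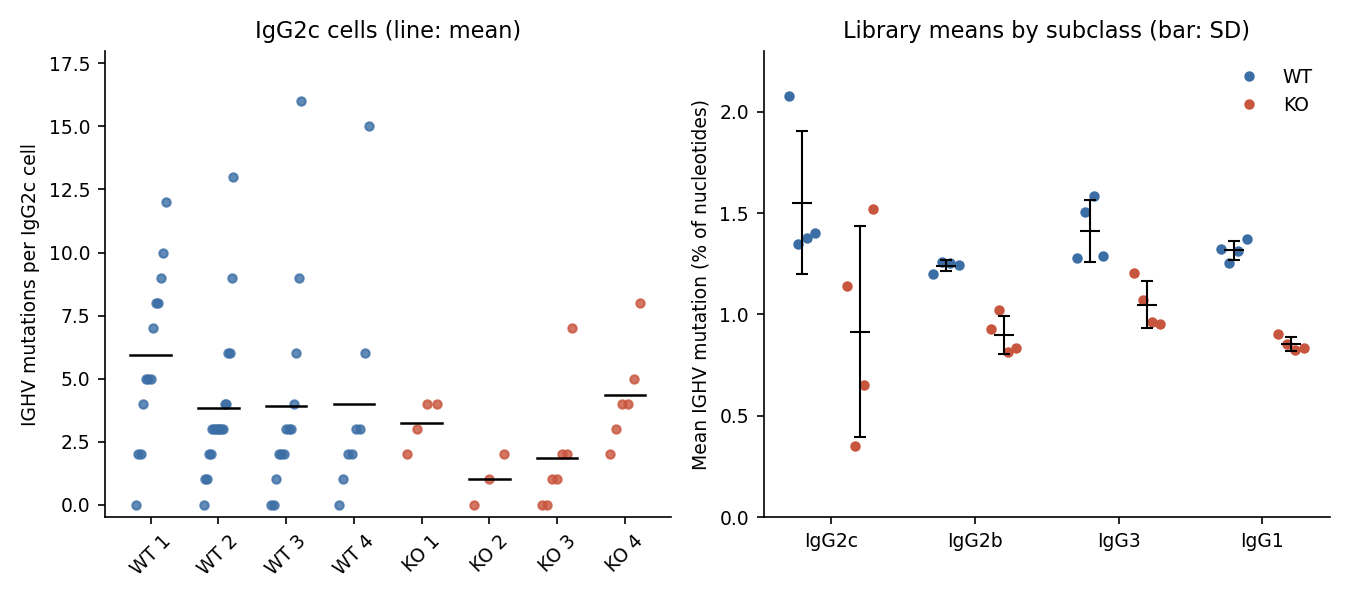
Left, IGHV mutations in each IgG2c cell by library, with the library mean as a line. Right, mean IGHV mutation (percent of nucleotides) of each library for the 4 IgG subclasses, with mean and SD over 4 libraries per pool. The IgG2c points spread from 0.351 to 2.08%, more widely than those of IgG3 (0.955 to 1.58%), IgG2b (0.815 to 1.26%) or IgG1 (0.826 to 1.37%). They also rest on the fewest cells: libraries held 3 to 18 IgG2c, 22 to 71 IgG3, 41 to 125 IgG2b and 153 to 310 IgG1 cells.

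The kinds of mutation are described without a test, since changes within a clone share a lineage. Counting each change once per clone gave 258 changes in the IgG2c clones. A or T bases took 43.4% of them (exact 95% interval 37.3 to 49.7%), beside 44.8% for IgG3, 44.4% for IgG1 and 42.6% for IgG2b. Of the 146 changes at C or G, 74.0% (66.1 to 80.9%) fell in hotspots of activation-induced deaminase, here a C preceded by A or T and then A or G, or the reverse complement on the other strand. Such hotspots hold 29.8% of the C and G bases in the reference sequences of these cells and 27.3% over all IGHV references. Replacement changes were 71.3% (65.4 to 76.8%) of the total. The number of changes per base was 2.08 times as high in the complementarity-determining regions (CDRs, the antigen-contacting loops) 1 and 2 as in the frameworks, beside 2.63 times for IgG3, 2.48 for IgG1 and 2.57 for IgG2b. The pools stood in opposite order: the IgG2c ratio was 1.90 in WT, below IgG3 (2.85), IgG1 (2.51) and IgG2b (2.62), and 2.82 in KO, from 55 changes, above IgG3 (1.96), IgG1 (2.45) and IgG2b (2.41).

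A smaller share of IgG2c cells than of IgG2b, IgG3 or IgM cells had a sister, meaning another sampled cell of the same clone, though no such difference passed after adjustment. A clone is defined here by the same heavy and light V and J genes and a heavy CDR3 at least 0.85 identical in nucleotides, over the 4 libraries of a pool. Sisters of any class count, so a class with more sampled cells has more chances of a sister of its own class. The shares are not adjusted for class size (73 IgG2c, 609 IgG2b, 375 IgG3, 1778 IgG1 and 37489 IgM cells), and the part it plays was not tested. The share of IgG2c cells with a sister was 23.1, 66.7, 57.1 and 50% in the WT libraries and 75, 33.3, 57.1 and 16.7% in the KO libraries. These values rest on 3 to 18 IgG2c cells per library. Because a sister may lie in another library of the pool, 1 clone can set the values of several libraries. The libraries are therefore not fully independent units in the tests below. The pools overlapped almost wholly, with means of 49.2% ± 18.7 and 45.5% ± 25.7 (SD, n = 4 each, exact permutation p = 0.914). Within a library the IgG2c share lay 21.4 ± 20.7 percentage points below that of IgG2b (lower in 6 of 8 libraries, exact sign-flip permutation p = 0.0312) and 23.5 ± 24.1 below that of IgG3 (lower in 7 of 8, exact permutation p = 0.0234). It lay 22.1 ± 21.7 below that of IgM (lower in 7 of 8, exact permutation p = 0.0234) and 11.7 ± 23.5 below that of IgG1 (lower in 6 of 8, exact permutation p = 0.195). Adjusted over the 8 class comparisons the first 3 were 0.0625 each and the last 0.312. The 3 that passed unadjusted did not pass in every library set: leaving out WT replicate 1 gave exact permutation p = 0.0938, 0.0781 and 0.0781 for IgG2b, IgG3 and IgM, and leaving out KO replicate 4 gave 0.125, 0.0781 and 0.0781. Leaving out WT replicate 3 ended the calls against IgG2b (exact permutation p = 0.0938) and IgM (p = 0.0781), KO replicate 3 those against IgG2b and IgG3 (p = 0.0625 each), and WT replicate 4, KO replicate 1 or KO replicate 2 that against IgG2b (p = 0.0625 each). Calls also ended at a minimum of 5 UMIs (IgG3 and IgM, exact permutation p = 0.0625 each), at a CDR3 identity of 0.95 (IgG2b and IgG3, p = 0.0625 each) and with identical CDR3 (IgG3, p = 0.188). With identical CDR3 the differences from IgG2b and IgM still passed, at -11.7 and -35.4 percentage points (exact permutation p = 0.0234 and 0.0078). The difference from IgG1 was -7.35 percentage points without WT replicate 1, -4.36 without KO replicate 4 and -6.42 with identical CDR3.

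More of the clones with IgG2c cells held IgM cells than cells of any other single class. IgM was also by far the most common class, with 37489 of the 40603 paired cells. Of the 61 IgG2c clones, 37 had 1 cell and 24 had more (18 WT, 6 KO), and 17 of these 24 spanned at least 2 libraries. Among the 24, 13 held IgM cells, 11 held cells of another IgG subclass and 4 held IgG2c cells alone. IgG1 sisters occurred in 7 clones, IgG2b sisters in 5, all of them WT, and IgG3 sisters in 4. No clone held IgD or IgA cells. Of all IgG2c cells, 12 of 53 in WT (22.6%, exact 95% interval 12.3 to 36.2%) and 5 of 20 in KO (25.0%, 8.66 to 49.1%) had an unswitched sister. In WT the same share was 54.4% for IgG3, 38.7% for IgG2b and 34.6% for IgG1, and in KO it was 29.1, 34.4 and 34.6%.

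**Figure D3:**
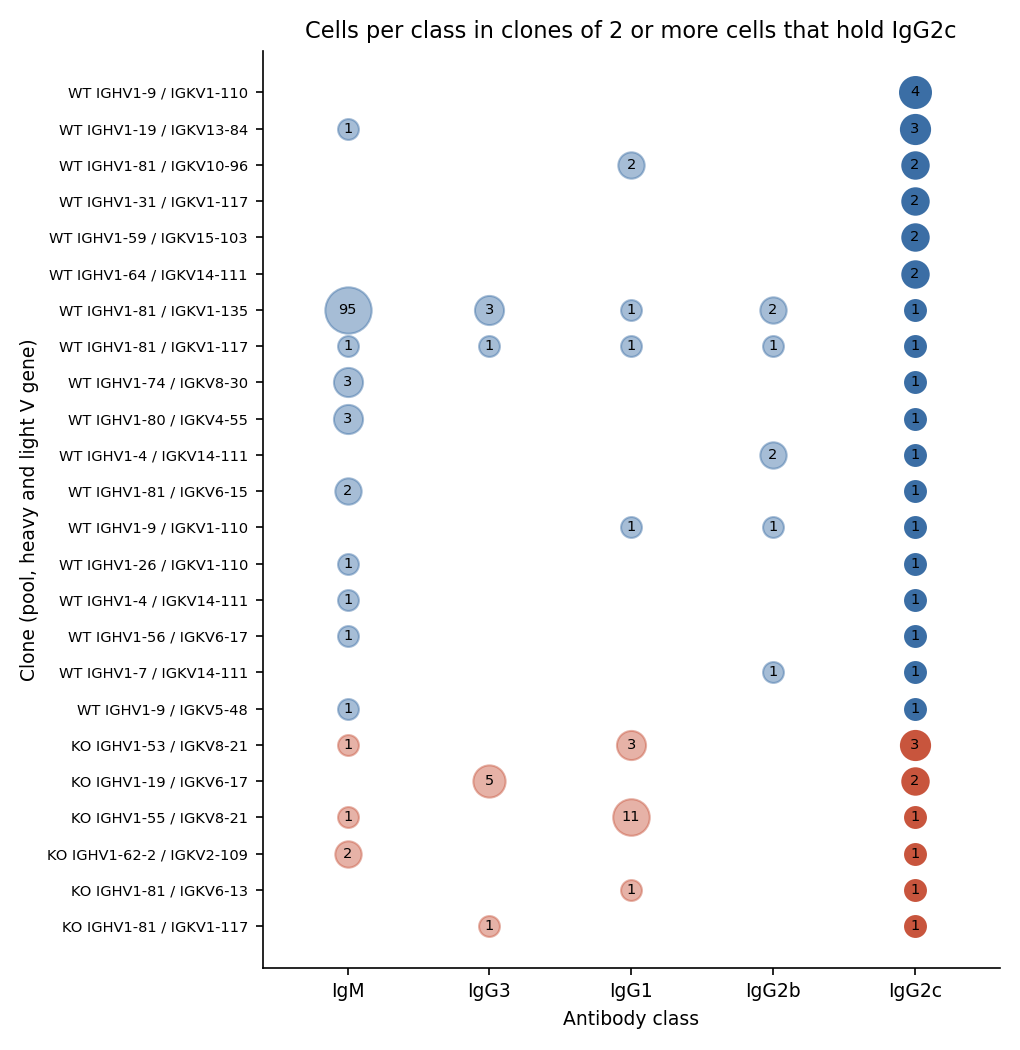
Number of cells of each antibody class (columns) in the 24 clones of 2 or more cells that hold IgG2c (rows, named by pool, heavy V and light V gene; blue WT, red KO; larger circles mean more cells, on a log scale, and the number is printed). The 4 clones with circles in the IgG2c column alone are all WT, and 13 clones have a circle in the IgM column.

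The 8 clones with the most IgG2c cells, numbered by that count, held 20 of the 73 cells. The heavy CDR3, the loop built at the V-D-J join, is part of the clone rule. The sequences of 3 of these clones are given to show where cells of the same clone match and differ. A common ancestor is inferred from the clone rule and was not tested. Capitals mark bases that differ from the first-listed sequence of the same clone.
Clone 1, 4 WT cells: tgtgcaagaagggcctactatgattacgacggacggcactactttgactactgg
Clone 3, 1 WT cell: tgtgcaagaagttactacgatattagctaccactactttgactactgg
Clone 3, 1 further WT cell: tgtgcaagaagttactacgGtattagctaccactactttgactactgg
Clone 3, the last WT cell: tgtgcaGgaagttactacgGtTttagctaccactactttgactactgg
Clone 2, 2 KO cells: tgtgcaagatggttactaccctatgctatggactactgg
Clone 2, 1 further KO cell: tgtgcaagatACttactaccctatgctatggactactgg

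Clone 1 (IGHV1-9 with IGKV1-110) was the largest group of IgG2c cells and held no other class. Its 4 cells came from WT replicates 2 and 3, 2 from each, shared 1 CDR3 sequence and carried 2 or 3 IGHV mutations. A cell of WT replicate 4, with IGHV1-9 and the same CDR3, was also IgG2c but had the light chain IGKV1-122, and its heavy chain rested on 1 UMI. Clone 3 (IGHV1-19 with IGKV13-84) had 1 IgG2c cell in each of WT replicates 2, 3 and 4, with 1 to 3 mutations, beside 1 IgM cell with 1 mutation. In its CDR3 the 3 cells form a series in which A20G is shared by both changed cells and A7G and A22T occur in the last alone (positions count from the first printed base).

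Clone 2 (IGHV1-53 with IGKV8-21) had the most IgG2c cells in KO: 3 with 0 or 1 mutations, beside 3 IgG1 cells and 1 IgM cell with 5 mutations. Clone 4 (KO, IGHV1-19 with IGKV6-17) joined 2 IgG2c cells of 2 and 4 mutations with 5 IgG3 cells. Clone 5 (WT, IGHV1-81 with IGKV10-96) held IgG2c cells with 13 and 16 mutations, the latter the highest of any IgG2c cell, beside 2 IgG1 cells with 12. Clones 6 (IGHV1-31 with IGKV1-117), 7 (IGHV1-59 with IGKV15-103) and 8 (IGHV1-64 with IGKV14-111) were WT pairs of IgG2c cells with no other class, and in each the 2 cells differed widely in mutation: 3 and 9, 2 and 9, and 3 and 10.

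The largest clone that held an IgG2c cell was chosen for mention by its size, outside the first 8. It had 102 WT cells with IGHV1-81 and IGKV1-135, of which 95 were IgM, 3 IgG3, 2 IgG2b, 1 IgG1 and 1 IgG2c. The IgG2c cell had 5 mutations and its IgM sisters 1.68 on average, with a range of 0 to 9. Over the 12 clones where both classes could be scored, IgG2c cells had more mutations than their IgM sisters in 5, fewer in 6 and as many in 1, with a median difference of -0.667 mutations. The excess over IgM cells seen library by library was thus not seen between sisters, most of which are lone cells of their class.

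The heavy V genes of IgG2c cells came almost wholly from the IGHV1 family, the largest mouse family: 66 of 73 cells (90.4%). In WT this was 88.7% of IgG2c cells, beside 79.6% of IgG2b, 73.5% of IgG3, 68.3% of IgG1 and 66.3% of IgM cells. In KO it was 95.0%, beside 73.2, 76.7, 71.5 and 62.7%. By clones, IGHV1-81 led with 9 (5 WT, 4 KO), followed by IGHV1-9 with 6, all WT, and IGHV1-64 with 6 (5 WT, 1 KO). IGHV1-19, IGHV1-26, IGHV1-4 and IGHV1-75 had 3 each and IGHV1-7 had 2. All IgG2c cells used kappa light chains. A count of 0 lambda cells among 53 WT and 20 KO cells allows shares of up to 5.66% and 15.0% by the limit of 3 counts, and lambda cells were 2.11 to 3.31% of the other WT IgG classes and 0.971 to 3.65% of the KO ones.

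The most frequent light chain differed between the pools. IGKV14-111 (chromosome 6, 68256404 to 68256869) was carried by 12 of 44 WT IgG2c clones (27.3%, exact 95% interval 15.0 to 42.8%) and by 0 of 17 KO IgG2c clones (up to 17.6% by the limit of 3 counts; the exact 95% upper bound, drawn in the plot of light V genes, is 19.5%). In the WT pool it was carried by 9.96% of IgG1 clones (7.41 to 13.02%), 9.23% of IgG2b clones (6.06 to 13.3%), 8.07% of IgG3 clones (4.37 to 13.4%) and 4.39% of IgM clones (3.92 to 4.91%). The KO values for these classes were 7.43, 7.56, 8.11 and 4.06%. The WT IgG2c cells with this light chain numbered 3 of 13, 6 of 18, 2 of 14 and 2 of 8 in replicates 1 to 4, so each WT library held some. This gene was singled out among the 6 most used light V genes after its counts were seen, so the shares are given without a test.

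**Figure D4:**
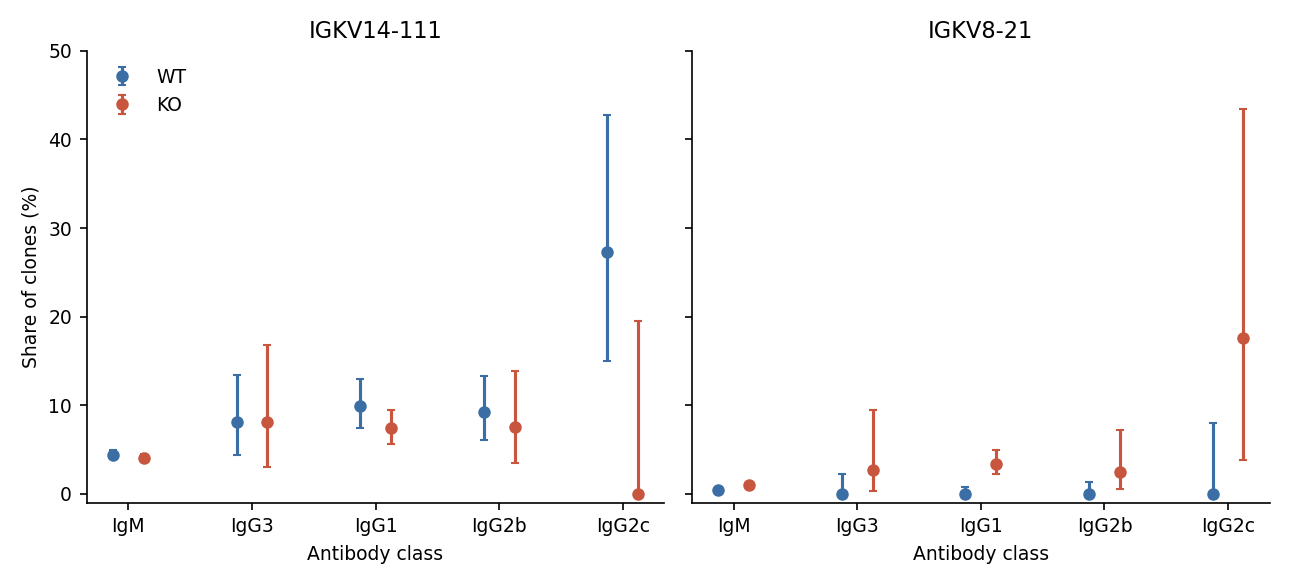
Share of clones (percent) that carried the light V genes IGKV14-111 (left) and IGKV8-21 (right) by antibody class, in WT (blue) and KO (red), with exact 95% binomial intervals over clones. The WT IgG2c point for IGKV14-111 stands at 27.3% and the KO IgG2c point at 0; for IGKV8-21 the KO IgG2c point stands at 17.6% with an interval of 3.80 to 43.4%, and the WT point at 0.

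The pairing of IGKV14-111 with IGHV1-64 (chromosome 12, 115507587 to 115507977) recurred among the WT IgG2c cells, with many mutations. It occurred in 5 of 44 WT IgG2c clones (6 cells, in all 4 WT libraries) and in 0 of the 904 WT clones of IgG1, IgG2b or IgG3, where a count of 0 allows up to 0.332%. Of 6804 WT IgM clones 8 had the pair. In KO it occurred in 0 of 17 IgG2c clones, 1 IgG1 clone and 12 of 9543 IgM clones. The 6 IgG2c cells carried 8.5 mutations on average (3 to 15), against 3.87 in the other WT IgG2c cells (0 to 16) and 1.78 in the 9 WT IgM cells with the same pair (0 to 6). Their heavy chains rested on 3 to 17 UMIs, beside 1 to 99 in the other WT IgG2c cells. The pair was chosen after these values were seen, and no test is given.

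Their IGHV1-64 segments are printed to show how far these lineages differ in their mutations. Each line gives bases 76 to 205 of the 285 from framework 1 to framework 3, which include CDR1 (76 to 96) and CDR2 (154 to 171). Capitals mark differences from the reference, the most common IGHV1-64 sequence over clones.
IGHV1-64 reference: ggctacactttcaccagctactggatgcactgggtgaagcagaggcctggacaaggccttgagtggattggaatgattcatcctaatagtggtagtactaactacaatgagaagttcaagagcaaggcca
Clone 8, WT replicate 1: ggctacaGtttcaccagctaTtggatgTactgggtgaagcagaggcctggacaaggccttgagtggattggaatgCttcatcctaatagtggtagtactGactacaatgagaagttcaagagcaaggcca
Clone 8, WT replicate 3: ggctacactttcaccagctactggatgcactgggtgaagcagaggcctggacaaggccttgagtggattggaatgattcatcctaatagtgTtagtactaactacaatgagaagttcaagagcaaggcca
Clone 41, WT replicate 1: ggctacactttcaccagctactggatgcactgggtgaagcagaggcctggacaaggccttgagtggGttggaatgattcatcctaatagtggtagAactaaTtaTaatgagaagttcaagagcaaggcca
Clone 42, WT replicate 1: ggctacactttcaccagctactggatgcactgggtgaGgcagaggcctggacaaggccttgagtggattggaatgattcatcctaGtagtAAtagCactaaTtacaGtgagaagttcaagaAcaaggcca
Clone 43, WT replicate 2: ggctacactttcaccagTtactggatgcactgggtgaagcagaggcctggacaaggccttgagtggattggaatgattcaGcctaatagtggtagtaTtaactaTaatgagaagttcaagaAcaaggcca
Clone 44, WT replicate 4: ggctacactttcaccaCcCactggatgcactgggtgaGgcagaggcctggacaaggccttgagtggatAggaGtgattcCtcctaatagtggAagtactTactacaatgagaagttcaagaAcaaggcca

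Across the whole segment these cells had 10, 3, 9, 8, 6 and 15 changes, in the order printed. The change G197A, a replacement at a base within a deaminase hotspot in framework 3, was present in clones 42, 43 and 44. These are 3 of the 5 WT IGHV1-64 IgG2c clones, and the 1 KO IgG2c clone with IGHV1-64 lacked it. Among WT IGHV1-64 clones of other classes it occurred in 18 of 255 IgM, 1 of 21 IgG1, 1 of 13 IgG2b and 1 of 8 IgG3 clones. The KO counts were 16 of 309, 3 of 32, 0 of 2 and 1 of 1. Of the 8 WT IgM clones with IGHV1-64 and IGKV14-111, 1 had it. G197A was picked for mention because it recurred in more IgG2c clones than any other change. The counts are not adjusted for mutation load: the 3 clones with G197A had 8, 6 and 15 changes, while 70.0% of WT IgM cells were unmutated. Whether G197A is more frequent in IgG2c clones than in equally mutated clones of other classes was not tested. A113G, C177T and C180T were each shared by 2 of the IgG2c clones. The 2 cells of clone 8, in contrast, shared G18A and A68T, which lie before the printed stretch, and no change within it.

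Clones 41 and 42 lay just outside the clone rule. Both came from WT replicate 1 with the same V and J genes, and their heavy CDR3 sequences were 83.3% identical, below the required 85%. Capitals mark the 7 bases at which clone 42 differs from clone 41.
Clone 41: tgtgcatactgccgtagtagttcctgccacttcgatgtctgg
Clone 42: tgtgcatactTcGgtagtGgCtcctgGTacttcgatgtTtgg

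In their IGHV segments these cells shared 1 of their changes. With a required identity of 0.75 they became 1 clone, which left 43 WT IgG2c clones and 17 KO ones.

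Without the 13 IGKV14-111 cells, an alternative chosen after seeing the data that also removes such cells from every other class, the pool difference in the IgG2c share of paired cells was -0.127 percentage points (exact permutation p = 0.0286). The difference in the share of IgG cells was then -1.71 percentage points (exact permutation p = 0.0571) and no longer passed. Since 0 KO IgG2c cells carried this light chain, the removal could lower only the WT IgG2c counts. These values are therefore no separate test of the difference.

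In KO the light V gene with the most IgG2c clones was IGKV8-21 (chromosome 6, 70314895 to 70315452), in 3 of 17 clones (17.6%, exact 95% interval 3.80 to 43.4%) and 5 of 20 cells. It was carried by 3.39% of KO IgG1 clones, 2.52% of IgG2b, 2.70% of IgG3 and 1.04% of IgM clones. In WT it was found in 0.412% of IgM clones. Of the WT IgG clones, 0 of 44 IgG2c, 0 of 472 IgG1, 0 of 271 IgG2b and 0 of 161 IgG3 carried it. These counts of 0 allow up to 6.82, 0.636, 1.11 and 1.86% by the limit of 3 counts. The KO count of 3 IgG2c clones only equals that limit, and no test is given. The first of the 3 KO clones was clone 2, which held 3 of the 5 cells. The next, clone 10, used IGHV1-55 and joined 1 IgG2c cell with 11 IgG1 cells and 1 IgM cell. The rule separates the pair by heavy V gene, by light J gene (IGKJ2 and IGKJ1) and by an identity below 85%, but their heavy CDR3 sequences were of the same length and 84.6% identical. Both are printed for that reason, with capitals at the 6 bases of clone 10 that differ.
Clone 2: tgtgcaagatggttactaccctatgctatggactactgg
Clone 10: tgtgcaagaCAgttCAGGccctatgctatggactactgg

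Both clones used IGHJ4, which contributes the 3′ part of the CDR3. No IgG2c receptor of either pool, by heavy V gene and heavy CDR3, was found in the other pool. The same held for nearly all receptors: over all classes, 49 of 21512 distinct receptors were found in both pools. The remaining light V genes named by the rule were IGKV1-117 (7 clones: 5 WT, 2 KO), IGKV1-110 (5: 4 WT, 1 KO), IGKV6-15 (4: 2 in each) and IGKV10-96 (3, all WT). IGKV6-17 tied with IGKV10-96 in clones (3: 2 WT, 1 KO) and cells (4) and came after it by name; IGHV1-80, IGHV5-4 and IGHV9-3 likewise tied with IGHV1-7 at 2 clones and 2 cells.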

How the data were processed

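Each deposited table lists assembled receptor contigs of 1 library with gene names, region sequences and, per the file headers, counts of reads and of UMIs. These counts are whole numbers without normalization as deposited. Cell Ranger (version not given in the sources used here), R 4.3.1 and the build mm10 are named in the submitters' processing notes. All 104649 contigs were marked as cell, high confidence, full length and productive.

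Paired cells had exactly 1 heavy and 1 light contig, and barcodes with more were left out as possible doublets; no doublet caller was run. IgG2c and IgG2b were told apart by the deposited constant gene name alone. An IGHV reference was the most common sequence over clones, for the 77 of 97 genes with at least 20 clones. Clones were joined by single linkage. All 67 gene names looked up matched the RefSeq table of GRCm38.p6.

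Pools were compared by permuting the libraries (exact and two-sided), and classes with an exact sign-flip permutation test of within-library differences. Of 15 tests, 7 were called at an unadjusted p under 0.05 and 0 after Benjamini-Hochberg adjustment within their family. Intervals are exact (Clopper-Pearson, 95%), and a count of 0 is read as up to 3 counts. The tests were checked on simulated data. Alternatives were UMI minimums of 5 and 10, each clone counted once, all barcodes with 1 heavy chain, references from 50 clones, other clone rules, the replicate block and each library left out. Named were all constant genes, the 8 heavy and 6 light V genes with the most IgG2c clones (ties by IgG2c cells, then by name), and the 8 clones with the most IgG2c cells with their genes. The members and lists were chosen with earlier results of these data known. Same-numbered WT and KO libraries deviated in IGHV use with correlations of -0.127, -0.233, -0.298 and -0.153 (51 genes). Portions of a common pool differ in IGHV use mainly by sampling. These values therefore cannot tell whether same-numbered libraries were handled together. The main tests leave the libraries unpaired. Tables were made with pandas 2.3.3, tests with SciPy 1.17.1 and NumPy 2.4.6, translations with Biopython 1.88 and plots with matplotlib 3.10.9, all under Python 3.11.15.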

Additional observations from a re-analysis of the deposited data

Results flagged for a closer look

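In WT replicate 1 the mean IGHV mutation of IgG2c cells was 2.08%, far from the next WT library at 1.40%. In all, 3 within-library differences stood apart in the same library: IgG2c minus IgG2b was 0.878 percentage points (next 0.158), IgG2c minus IgG1 0.757 (next 0.0916) and IgG2c minus IgM 1.72 (next 1.04). All 4 rest on the same 13 IgG2c cells, so they are 1 pattern, and of the 30 groups of 4 libraries examined chance alone marks about 1 in 20. Those 13 cells belong to 13 clones, 3 of them had a sister, and 3 carried IGHV1-64 with IGKV14-111. Their median heavy-chain UMI count was 12, beside 8.5, 9.5 and 12 in the other WT libraries.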

How the results depend on the processing

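Of the alternative values, 133 kept direction and side of the threshold, 46 kept direction but no longer passed and 23 changed sign; those that changed sign belonged to comparisons that never passed. The IgG2c minus IgM mutation difference passed in all 13 alternatives (0.842 to 1.08 percentage points). With 1 library left out, ranges were -0.228 to -0.157 for the share of paired cells, -2.91 to -2.10 for the share of IgG, -6.92 to -5.26 against IgG1, -2.31 to 0.129 against IgG2b, -2.19 to 1.49 against IgG3, -0.111 to 0.106 for mutation minus IgG3, 0.0615 to 0.283 minus IgG2b, 0.0606 to 0.241 minus IgG1, -0.837 to -0.447 for mutation between pools and -13.5 to 5.94 for the sister share between pools. The sister share ranged from -23.2 to -14.9 minus IgG2b, -26.1 to -15.6 minus IgG3, -25.2 to -16.5 minus IgM and -14.3 to -4.36 minus IgG1. With replicate numbers as a block, the first 3 differences were -0.191, -2.43 and -6.00 with exact permutation p = 0.125, the smallest that 4 pairs allow; no other call changed. Counting each clone once gave -0.0137 for mutation minus IgG3. At least 5 UMIs gave 0.804 for the sister share between pools, and -21.6 minus IgG3 and -20.3 minus IgM. At least 10 UMIs gave 1.13 against IgG2b, 2.60 against IgG3, -0.113 for mutation minus IgG3 and 2.32 for the sister share between pools. A CDR3 identity of 0.95 gave 1.22 for the latter, and -17.7 minus IgG2b and -20.0 minus IgG3; identical CDR3 gave 13.3, and -9.86 minus IgG3. Chosen after seeing the data were an identity of 0.75 and leaving out IGKV14-111, which gave -1.71 for the share of IgG, 1.203 against IgG2b, 3.69 against IgG3 and -0.0422 for mutation minus IgG3. The causes were not tested; 73 cells limit every value.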

Other observations

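Heavy J genes were also listed for the IgG2c cells. IGHJ2 was used by 27 of 53 WT IgG2c cells (50.9%), beside 33.5% of all WT IgG cells, and by 7 of 20 KO IgG2c cells (35.0%), beside 30.8% of all KO IgG cells. IGHJ4 was used by 13.2% of WT IgG2c cells, beside 26.4% of all WT IgG cells, and by 25.0% of KO IgG2c cells, beside 27.5%. The heavy CDR3 was 43.8 ± 7.04 nucleotides long in WT and 41.9 ± 6.85 in KO IgG2c cells (SD over cells), and 42.6 to 45.1 on average in the other IgG classes of either pool.

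Beyond the 73 members, 9 further IGHG2C contigs lay in barcodes that did not have exactly 1 heavy and 1 light chain, 7 in WT and 2 in KO. Of these, 5 shared their barcode with another heavy contig, an IGHM chain in each case, with 1 to 28 UMIs for IGHG2C and 9 to 80 for IGHM. Whether these were doublets was not tested. The other 4 had either no light chain (2) or 2 light chains (2).

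In WT, the IgG2c cells with fewer than 10 heavy-chain UMIs had a mean mutation level of 1.78% (26 cells) and those with 10 or more 1.31% (26 cells). In KO the values were 0.842% (5 cells) and 1.01% (15 cells).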
